A study of Mus musculus with 5 samples.

Results

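The regions described here are the Nr1d1 ChIP peaks in mouse Th1 cells that overlapped no peak of the IgG mock and that the authors' HOMER annotation placed in an exon. They number 654 of 14469 annotated ChIP-specific peaks, or 4.52% (95% Wilson interval 4.19 to 4.87), and lie nearest to 632 different gene names. They were taken from the deposited annotation by its class alone, and are set beside the 703 exon peaks among 17110 annotated peaks of the IgG mock (4.11%, interval 3.82 to 4.42). The series holds 5 libraries: 3 Nr1d1 ChIP libraries, 1 IgG mock and 1 input DNA. All came from wild-type C57BL/6 mice aged 4 to 6 weeks. Naive CD4 T cells from secondary lymphoid organs were stimulated through CD3 and CD28 and turned into Th1 cells with IFNγ, IL-12 and antibody blocking of IL-4. Cells were harvested at day 3 to 4 and fixed in 1% formaldehyde for 30 min. The labels list 1 antibody, against Nr1d1, for every library, even for the mock and the input, so the groups follow the sample titles. Whether mice were pooled is not stated.

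Nr1d1 encodes REV-ERBα, a haem-binding nuclear receptor that represses transcription. It binds the hexamer AGGTCA with an A/T-rich extension, or competes there with ROR activators, and recruits the NCoR corepressor with HDAC3. It forms a negative limb of the circadian clock and also acts on lipid metabolism and on T helper cells. Binding is usually described at promoters and enhancers. An exon peak may lie in the first exon just past a promoter or deep in a gene body, where exons differ from introns in base composition and in how reads map.

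The peaks hold no read count, height or fold. Each has a length in steps of 25 bp and a false discovery rate (FDR) under 0.05, printed to 6 decimals. Each also has a signed distance to the nearest annotated transcription start site (TSS). The 3 ChIP libraries are represented by 1 list, so the peaks cannot be compared between replicates and the depth behind a peak is unknown. Peaks of 1 list are not replicates: the p-values below compare lists of peaks, and the intervals cover the counting of peaks only.

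The promoter sequences of 3 members are shown because their peaks run from the annotated exon back across the RefSeq start of the gene. Crmp1, a cytosolic phosphoprotein that mediates semaphorin signalling in neurons, has the exon peak ranked first by FDR and then length (chr5:37242001-37242499). Cdk13, a cyclin-dependent kinase that phosphorylates RNA polymerase II, has the longest peak (chr13:17804501-17805274). Irs1, the adaptor that links the insulin receptor to its signalling cascade, has a peak of 675 bp (chr1:82290976-82291649). Each run is the 250 bases before the RefSeq start, 5′ to 3′ on the strand of the gene, from RefSeq GRCm38.p6 (mm10), and capitals mark the bases that the exon peak covers. The windows are chr5:37241808-37242057 on the plus strand, chr13:17805098-17805347 on the minus strand and chr1:82291440-82291689 on the minus strand.
Crmp1: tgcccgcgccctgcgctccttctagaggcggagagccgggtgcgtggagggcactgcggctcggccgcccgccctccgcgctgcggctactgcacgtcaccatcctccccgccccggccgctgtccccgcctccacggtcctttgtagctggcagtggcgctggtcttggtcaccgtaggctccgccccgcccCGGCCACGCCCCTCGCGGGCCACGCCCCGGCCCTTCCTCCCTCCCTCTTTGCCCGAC
Cdk13: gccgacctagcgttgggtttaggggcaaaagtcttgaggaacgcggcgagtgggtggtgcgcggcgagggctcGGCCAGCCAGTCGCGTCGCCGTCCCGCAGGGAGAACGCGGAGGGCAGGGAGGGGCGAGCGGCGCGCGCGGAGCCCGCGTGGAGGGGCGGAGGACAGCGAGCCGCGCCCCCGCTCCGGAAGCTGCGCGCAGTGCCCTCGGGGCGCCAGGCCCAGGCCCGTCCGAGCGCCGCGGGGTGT
Irs1: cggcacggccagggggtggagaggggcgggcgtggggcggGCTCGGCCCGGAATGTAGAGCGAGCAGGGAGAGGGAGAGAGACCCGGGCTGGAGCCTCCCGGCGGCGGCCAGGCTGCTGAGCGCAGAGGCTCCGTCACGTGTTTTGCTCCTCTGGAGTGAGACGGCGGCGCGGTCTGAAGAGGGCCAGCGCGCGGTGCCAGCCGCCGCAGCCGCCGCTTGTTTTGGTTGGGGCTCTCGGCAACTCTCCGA

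The peaks covered 57 bases of the Crmp1 window, 177 of the Cdk13 window and 210 of the Irs1 window. All 3 windows are GC-rich, at 75.6% for Crmp1, 76.8% for Cdk13 and 72.4% for Irs1. None holds the receptor hexamer AGGTCA on either strand. The E-box CACGTG, the motif of the clock activators CLOCK and BMAL1, occurs once in the Irs1 window, inside the covered part. GGGCGG, the core of a GC box, was counted on both strands, without copies that overlap one already counted. By that count it occurs 3 times in the Crmp1 window, once in the Cdk13 window and 2 times in the Irs1 window. The Crmp1 window holds further copies that overlap these. Only the Cdk13 copy lies in covered bases. These matches describe letters and not bound sites.

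Such peaks were a minority. Of the 654 members, 42 touched a RefSeq promoter window of 300 bases (250 before to 50 after a start), 36 of them a window of their own nearest gene, and 18 contained a RefSeq start. They touched 43 windows, with a median GC content of 72.0% against 52.7% over all 32851 windows. The 62 windows touched by IgG exon peaks had a median of 71.3%. AGGTCA, searched on both strands, was in 6 of the 43 windows (14.0%, interval 6.56 to 27.3), in 8.06% of the IgG windows and in 16.3% of all windows. TAGGTCA, which contains AGGTCA, was in 0 of the 43 (interval to 8.20), against 2.61% of all. CACGTG was in 1 of the 43 (2.33%, interval 0.412 to 12.1) and in 7.15% of all. GGGCGG was in 34 of the 43 (79.1%, interval 64.8 to 88.6), in 77.4% of the IgG windows and in 35.7% of all. The windows touched by ChIP-specific and by IgG exon peaks thus differed by less than 2 percentage points in GC median and in GGGCGG share, and both lay above all windows. Each window was read whole, although the ChIP-specific exon peaks covered as few as 10 of its bases (Selenot) and as many as 300 (Epb41l4b). The shares therefore describe the windows and not the peak sequence alone. A genome sequence of the build was not used here, so peaks away from a promoter window were not searched.

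Of the exon peaks, 304 lay within 1 kb of a TSS and 350 beyond. Their median absolute distance to the TSS was 1450.5 bp (quartiles 291 to 9717), with 569 peaks downstream and 85 upstream of the nearest TSS. Of the 654, 135 lay within 250 bp (20.6%), 106 between 250 and 500 bp (16.2%) and 63 between 500 and 1000 bp (9.63%). Beyond that, 52 lay at up to 2000 bp, 69 at up to 5000 bp, 67 at up to 10000 bp, 109 at up to 50000 bp and 53 farther out. Peaks of the promoter class lay from 1000 bp upstream to 928 bp downstream of the TSS they were assigned to. The exon peak closest to a TSS was 101 bp downstream, and the closest on the upstream side was 311 bp away. The closest IgG exon peak was also 101 bp from a TSS. The annotation gives promoter windows before exons, and the smallest downstream distance of 101 bp is taken here as the near edge of the class. The promoter and exon classes still overlapped in distance on both sides of the TSS, for a reason that was not tested.

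ChIP-specific intron peaks lay elsewhere, with a median distance of 23965 bp. Within 1 kb of a TSS stood 46.5% of the exon peaks and 4.36% of the 4452 intron peaks, a difference of 42.1 percentage points (interval 38.3 to 46.0). A two-sided Fisher's exact test gave a Benjamini-Hochberg adjusted p of 3.04e-167 over the 10 share tests. First exons lie at starts by definition, so part of this difference is set by the annotation. The IgG exon peaks followed the same course, as the plot of distances shows, with a median of 937 bp and 51.9% within 1 kb. The ChIP-specific minus IgG difference was -5.44 points (interval -10.7 to -0.115), and the test did not pass the threshold of 0.05 (two-sided Fisher's exact test, adjusted p = 0.0841). Against the 405 IgG exon peaks that overlap no ChIP peak, which matches how the ChIP-specific list was made, it was 4.01 points (Fisher's exact test, adjusted p = 0.341). The direction thus depended on which IgG peaks were counted.

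**Figure D1:**
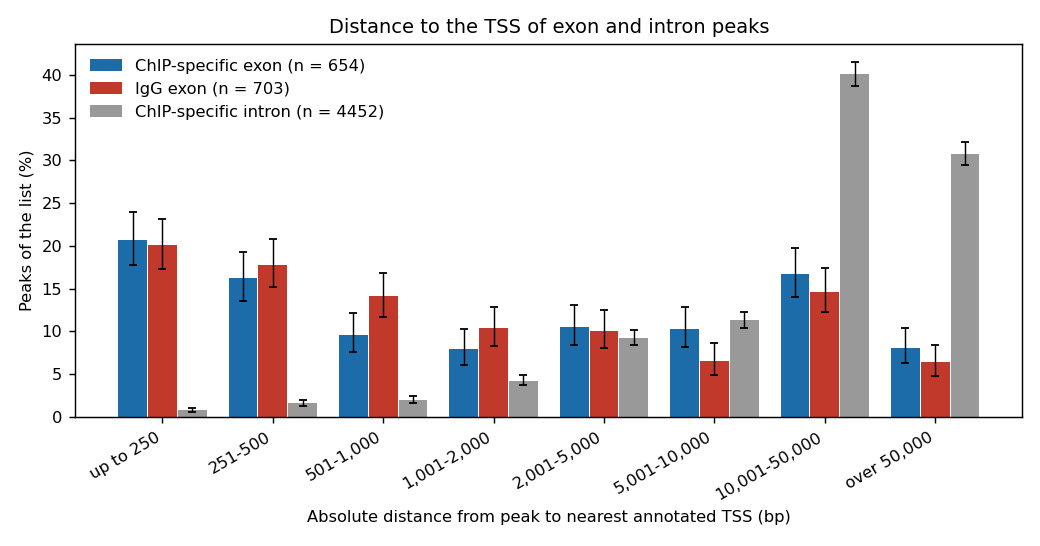
Share of peaks (%) by absolute distance to the nearest annotated TSS (bp) for 654 ChIP-specific exon, 703 IgG exon and 4452 ChIP-specific intron peaks, with 95% Wilson intervals as error bars. The bars of both exon lists start near 20% within 250 bp, where the intron bar is under 1%.

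At this near edge of the exon class, the members nearest to a start at named genes were at Ptbp2, Adrbk2, Tbx20, Slc27a4, Irs1 and Ctbp1. Ptbp2, a neuronal regulator of splicing, had its peak centre 101 bp downstream (275 bp long, FDR 0.0133). Adrbk2, a kinase of G protein-coupled receptors named Grk3 in RefSeq, followed at 102 bp. Tbx20, a T-box factor of heart development, and Slc27a4, a fatty acid transporter, followed at 103 bp. Irs1 and Ctbp1, a transcriptional corepressor, stood at 104 bp. The Ctbp1 peak (chr5:33274776-33275024, FDR 0.0106) had an IgG peak 252 bp away, and the nearest IgG peak to Irs1 was 47327 bp away.

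At the other end, distance to the TSS and the exon hit could be properties of different genes. The farthest named case was assigned to Oca2, the melanosomal transporter gene, at 416612 bp, but lies within the RefSeq span of Gabrg3, a GABA-A receptor subunit (chr7:56722751-56722949, FDR 0.0106). A pair of peaks assigned to n-R5s95, a 5S rRNA gene, at 360587 and 361774 bp lies within the span of Fam155a. Ctnna2 at 342738 bp, Nxph1 at 297749 bp and Dock4 at 284259 bp lie within their own genes, which are long and encode an alpha-catenin, a neurexin ligand and a guanine nucleotide exchange factor. Over all members, 477 (72.9%) lay in the RefSeq span of the nearest gene by TSS. Another 152 lay only in a span of another name, of which 139 in that of a protein-coding gene, and 25 in no RefSeq span. The 152 and 25 include the 86 members (13.1%) whose gene name was not found in RefSeq. No span could match those names, so a different gene is not shown for them. For IgG exon peaks the share in the span of the nearest gene was 78.4%, with 10.1% of names not found. Of the 53 members beyond 50 kb, 28 were in their own gene and 24 only in a span of another name. For these members the name in the annotation is the gene with the nearest start and not always the gene whose exon was hit. Exon models were not used here, so UTR, coding sequence and exon number are not given.

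Members were 100 to 775 bp long, with a median of 200 bp (quartiles 150 to 250), and 16.8% were 300 bp or longer. Their FDR had a median of 0.0133 (quartiles 0.00928 to 0.0222) and took 242 distinct values, 50 members sharing 0.00880. The FDR therefore ranks members only coarsely, and 9 were printed as 0.

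Exon peaks were long more often than the other ChIP-specific peaks. Peaks of 300 bp or longer made up 16.8% of the exon peaks and 12.02% of the 13815 peaks of other classes, 4.80 points more (interval 2.08 to 7.91, two-sided Fisher's exact test, adjusted p = 0.00120). Promoter peaks of the same list had a share of 16.3%, intron peaks 12.2%, TTS peaks 11.6% and intergenic peaks 11.5%. Against promoter peaks alone the difference was 0.549 points (interval -3.26 to 4.44, Fisher's exact test, adjusted p = 0.853). Within the exon class, 20.7% of the 304 peaks within 1 kb of a TSS and 13.4% of the 350 beyond were this long, a difference of 7.30 points (interval 1.53 to 13.1, two-sided Fisher's exact test, p = 0.0189 adjusted over 6 tests added after the data had been seen). The exon peaks beyond 1 kb differed from other classes by 1.41 points (interval -1.81 to 5.42, Fisher's exact test, adjusted p = 0.580). Long exon peaks were thus more frequent close to starts.

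The mock showed the same order. Among IgG peaks, 22.3% of exon peaks and 15.3% of other classes were 300 bp or longer (two-sided Fisher's exact test, p = 4.99e-06 adjusted over the 6 added tests), and 27.1% of IgG exon peaks within 1 kb against 17.2% beyond (adjusted p = 0.00229). The plot of length and FDR by class sets both lists side by side. ChIP-specific exon peaks reached 300 bp less often than IgG exon peaks, with a difference of -5.51 points (interval -9.70 to -1.28, two-sided Fisher's exact test, adjusted p = 0.0229). This turned around against the 405 IgG exon peaks over no ChIP peak, of which 10.9% were 300 bp or longer: the ChIP-specific share was then 5.96 points higher (interval 1.63 to 10.02, Fisher's exact test, adjusted p = 0.0144). Peaks that overlap between the lists are long: 44.6% of the 316 exon ChIP peaks over an IgG peak and 37.9% of the 298 IgG exon peaks over a ChIP peak reached 300 bp. The ChIP-specific list leaves them out and the full IgG list keeps them.

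**Figure D2:**
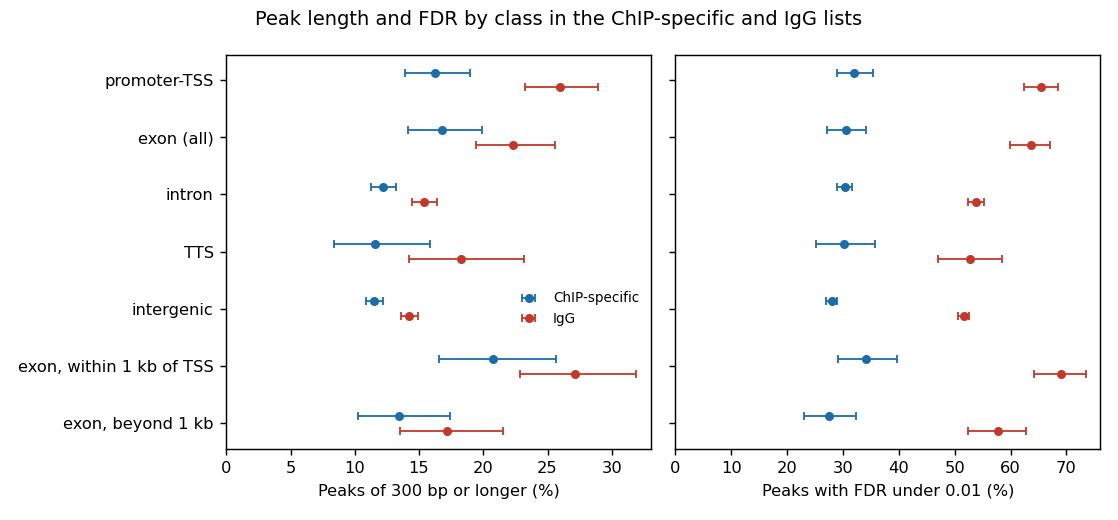
Share of peaks of 300 bp or longer (left, %) and with an FDR under 0.01 (right, %) by class in the ChIP-specific and the IgG list, points with 95% Wilson intervals. ChIP-specific exon peaks stand at 16.8% and 30.6%, and exon peaks within 1 kb of a TSS lie above those beyond 1 kb in both lists and both measures. For the FDR of ChIP-specific exon peaks this difference did not pass the threshold (two-sided Fisher's exact test, adjusted p = 0.0619).

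By FDR the exon peaks did not stand apart within their own list. An FDR under 0.01 was given to 30.6% of exon peaks and 29.0% of other classes, 1.55 points more (interval -1.94 to 5.27, two-sided Fisher's exact test, adjusted p = 0.575). With 0.02 as the limit 69.1% of exon peaks and 63.7% of other classes passed (Fisher's exact test, adjusted p = 0.00919). Within the exon class, 34.2% of peaks within 1 kb of a TSS and 27.4% of those beyond had an FDR under 0.01. That difference of 6.78 points did not pass the threshold (interval -0.295 to 13.8, two-sided Fisher's exact test, p = 0.0619 adjusted over the 6 added tests). Of IgG exon peaks 63.6% had an FDR under 0.01, a difference of -33.0 points for the ChIP-specific exon peaks (two-sided Fisher's exact test, adjusted p = 6.20e-34). Against the 405 IgG exon peaks over no ChIP peak, with 52.6%, the difference was -22.0 points, and with an FDR limit of 0.02 it was -7.13 points against all IgG exon peaks. The other classes also differed between the lists, at 29.0% of ChIP-specific and 53.1% of IgG peaks. Within the mock, exon peaks passed 0.01 more often than other classes, by 10.5 points (interval 6.80 to 14.1, two-sided Fisher's exact test, p = 2.31e-07 adjusted over the 6 added tests).

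Exon peaks were near predicted genes (symbols of Gm and a number, or ending in Rik) in 22.5% of cases, against 47.7% for other classes, a difference of -25.3 points (interval -28.4 to -21.8, two-sided Fisher's exact test, adjusted p = 4.72e-38). Most of the other classes are intergenic. Against promoter, intron and TTS peaks together, with 30.4%, the difference was -7.96 points. The IgG exon share was 21.2% (Fisher's exact test, adjusted p = 0.716). Of the 568 members whose gene was found in RefSeq (86.9%), 480 were at protein-coding genes, 46 at pseudogenes, 5 at transcribed pseudogenes and 20 at lncRNA genes. Chromosome X carried 63 members, 9.63%, against 9.25% of IgG exon peaks (Fisher's exact test, adjusted p = 0.853) and 10.3% of other classes (Fisher's exact test, adjusted p = 0.716). Exon peaks formed 7.13% of the ChIP-specific peaks of chromosome 11, the highest share, and 1.15% of those of chromosome Y (2 of 174). The interval for chromosome 11 (5.37 to 9.41) makes no allowance for picking the highest, and 5 of its 45 members were at Cdc27. In the IgG list the exon share was 4.10% on chromosome 11 and highest on chromosome 13, at 7.08%.

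**Figure D3:**
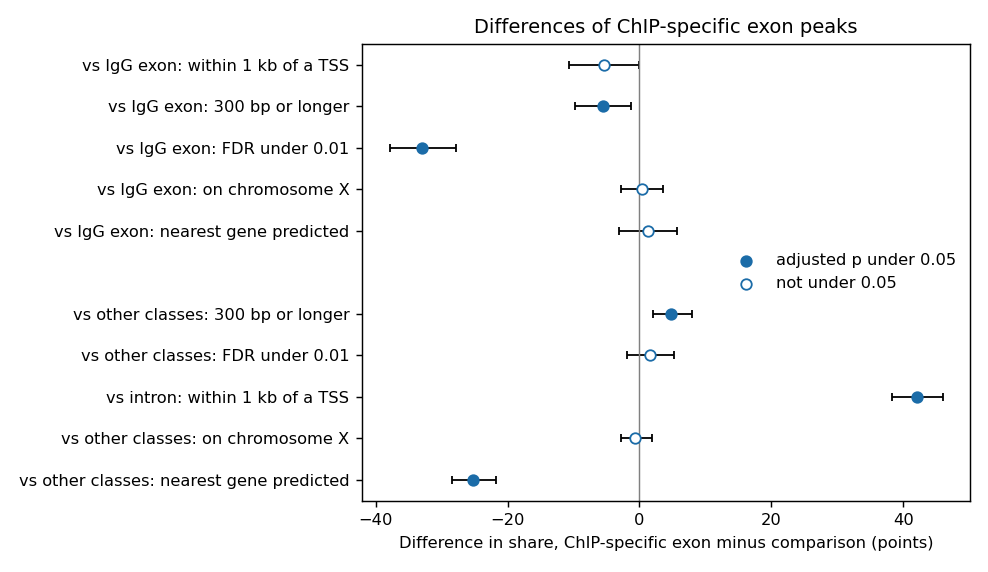
Difference in share (percentage points) between ChIP-specific exon peaks and the comparison named on each line, with 95% Newcombe intervals; filled points passed an adjusted p of 0.05 in two-sided Fisher's exact tests over 10 tests. The differences run from -33.0 points (FDR under 0.01 against IgG exon peaks) to 42.1 points (within 1 kb of a TSS against intron peaks), and 5 of 10 passed.

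Having no IgG overlap is what placed these peaks in the list, so its frequency is a description. Of 970 exon peaks in the full ChIP list 654 had no IgG overlap (67.4%, interval 64.4 to 70.3), against a background of 73.9% for all annotated ChIP peaks, 64.0% for promoter peaks and 75.1% for intron peaks. Members just inside the rule sat beside the mock: 4 abutted an IgG peak, at Pcsk1n, Myh1, Pura and Gm6275, genes named here after their values were seen. An IgG peak lay within 1 kb of 36 members (5.50%) and of 2.81% of other classes, 2.70 points more (interval 1.17 to 4.73, two-sided Fisher's exact test, p = 6.04e-04 adjusted over the 6 added tests). The median gap was nevertheless wider for exon peaks, at 48964.5 bp against 36277 bp. The rule had already removed peaks over an IgG peak, and more often among exon peaks than among all ChIP peaks. The p-value for nearness to IgG peaks therefore describes only what the rule left.

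Genes with an exon peak in both lists numbered 47, which is 7.44% of the ChIP-specific and 7.03% of the IgG exon gene names. Both shares are above the background. Over all 21900 protein-coding RefSeq genes, 2.27% had an IgG exon peak and 2.12% a ChIP-specific one. The 47 also include names outside that set, and the overlap was not tested. The first by FDR was Fjx1, a secreted regulator related to four-jointed, with its ChIP-specific peak 477 bp from the IgG exon peak. At Fam170b and Zcchc14 the gap was 152 bp, so the non-overlapping peaks were near neighbours. At Bcor, the BCL6 corepressor, the ChIP-specific peak (FDR 0.00597) lay 42841 bp downstream of the TSS and the IgG exon peak 291 bp downstream. At Fras1, an extracellular matrix protein, the exon peaks lay 181320 and 307 bp downstream, but an IgG peak of another class lay 27 bp from the ChIP-specific peak. The 5 IgG exon peaks that ranked first, at Sox11, Bhlhe22, Astn2, B630019K06Rik and Gnai1, all lay over a ChIP peak.

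The members ranked first at named genes were mostly close to a start. Besides Crmp1 (500 bp, FDR printed as 0, 170 bp downstream), an FDR printed as 0 was given to Hspa2, a testis-enriched relative of the HSP70 chaperones (chr12:76405876-76406224, 350 bp, 1874 bp downstream). The same holds for Fbxo17, an F-box subunit of ubiquitin ligases (chr7:28732651-28732999, 350 bp, 325 bp downstream) and for the lncRNA gene BC037032 (325 bp, 105 bp downstream). These 4 peaks lay 1202 bp or more from an IgG peak. Msantd2 followed with 500 bp and an FDR of 0.00104. Synm, an intermediate filament protein, had 0.00274, Erlin2, a lipid raft protein of the endoplasmic reticulum, 0.00297, and Smoc2, a secreted calcium-binding protein, 0.00368. Cdk13 had 0.00416, with its peak centre 210 bp downstream. Of these 9 peaks, 7 lay within 1 kb of a TSS and the Erlin2 peak lay farthest, at 8526 bp.

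Among predicted genes the first was Gm1821, the ubiquitin B pseudogene Ubb-ps of RefSeq (400 bp, FDR printed as 0, 249 bp downstream). Gm13429 and Gm8844 had 375 bp each, and Gm25754 had 350 bp, all with an FDR printed as 0. Gm22773 had 475 bp and 0.00104, and its peak lies in the span of Bmp7. Pseudogenes share sequence with their parent genes, and no source used here says how reads with several matches were treated. What such reads add to these peaks was not tested.

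Several members per gene were rare: 18 genes had at least 2, with 40 peaks in all. Cdc27, the APC3 subunit of the anaphase-promoting complex, led with 5 exon peaks, and these were all of its ChIP-specific peaks. Its RefSeq span is chr11:104502524-104550620 on the minus strand, 48.1 kb long. The 5 peak centres lay 13957.5, 15820, 22182.5, 29095 and 29857.5 bp from the RefSeq start, in the middle of the gene. Their lengths ran from 175 to 250 bp and their FDR from 0.00887 to 0.0263, a range that includes the median of all members. The start of Cdc27 itself carried a ChIP peak of 400 bp with an FDR printed as 0, but over an IgG peak of 150 bp (FDR 0.0423), so the start is outside the ChIP-specific list. No IgG peak was listed at the exon peaks, as the map of Cdc27 shows. Whether reads from related copies add to these peaks was not tested.

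**Figure D4:**
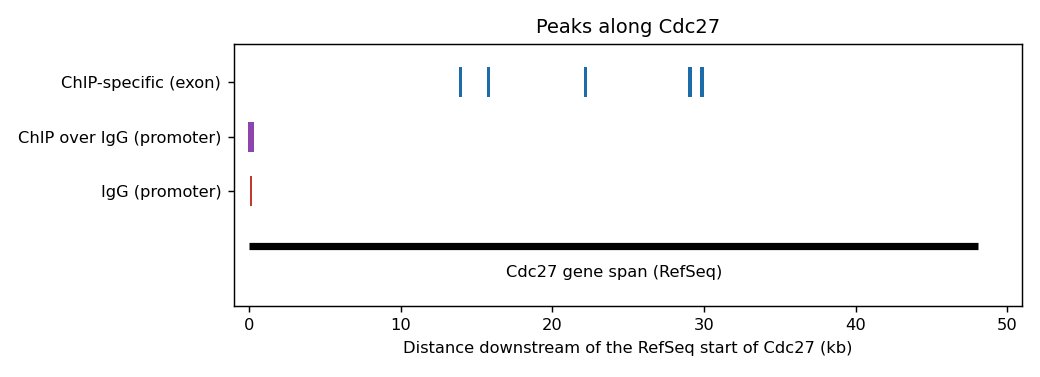
Peaks along the RefSeq span of Cdc27, drawn to scale by distance downstream of the RefSeq start (kb). The 5 ChIP-specific exon peaks lie between 13957.5 and 29857.5 bp, whereas the ChIP and IgG peaks that overlap each other lie at the start.

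Dnah9, an axonemal dynein heavy chain, had 3 exon peaks among 7 ChIP-specific peaks, 1 of them in the span of Shisa6 instead. All ChIP-specific peaks were exonic also at D1Ertd622e, Dcaf12l2 and Gm4450, with 2 each. Bicc1, an RNA-binding regulator of kidney development, had 2 of 8, Dmrt2, a DM-domain transcription factor, 2 of 4, and Mkrn3, a ubiquitin ligase gene of an imprinted domain, 2 of 3. Tenm3, a teneurin of neuronal wiring, had 2 of 12. The IgG list also had peaks at most of these genes. It held 10 at Tenm3, 4 at Dnah9, 3 at Bicc1, 2 at Dcaf12l2 and 1 each at Dmrt2 and Mkrn3. It held 0 at D1Ertd622e and Gm4450, and 0 of the IgG peaks at these genes were exonic. The Bicc1 peaks of 175 and 100 bp lay 24827 and 24639 bp from the TSS, so such pairs can be neighbouring calls. In all, 18 members lay within 1 kb of another.

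At genes of the clock, 1 of 25 had a ChIP-specific exon peak, Cry2, a repressor of CLOCK and BMAL1 (chr2:92433776-92434049, 275 bp, FDR 0.0275, 124 bp downstream). Of 48 Th1 and T cell genes, 1 had one, Eomes, a T-box factor of effector lymphocytes (chr9:118478926-118479174, 250 bp, FDR 0.00956, 189 bp downstream). Of 23 metabolic target genes, 0 did. Over all 21900 protein-coding RefSeq genes 464 did, or 2.12%, and 2.27% had an IgG exon peak. Counts of 0 or 1 in lists of this size are near that background. At these lists the IgG mock had an exon peak at Maf alone. The nearest IgG peaks were 373527 bp from the Cry2 peak and 16577 bp from the Eomes peak. The FDR of the Cry2 peak is above the upper quartile of the members. None of Nr1d1, Tbx21 or Ifng, the genes of the receptor, of T-bet and of interferon gamma, had an exon peak in the ChIP-specific list.

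Other genes of transcriptional corepressors, named after their values were seen, were Ctbp1, Bcor and Lcor. No share over all such genes is given for them. The Ctbp1 peak had an IgG peak nearby, as given above, and Bcor also had an IgG exon peak (FDR printed as 0). The Lcor peak measured 125 bp with an FDR of 0.00887, 9373 bp downstream of the TSS. Nuclear receptor genes, also named after their values were seen, were Nr0b1 (FDR 0.0386, 286 bp downstream) and Nr2f2 (FDR 0.0157, 5793 bp downstream). Nr2f2 had exon peaks in the mock too, at 231, 2568 and 410 bp downstream of a TSS (FDR 0.000281, 0.00996 and 0.0195). No share over all nuclear receptor genes is given.

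Families of developmental transcription factors had exon peaks in both lists. Of 63 protein-coding Sox and forkhead genes 6 had a ChIP-specific exon peak (9.52%), among them Foxc1, Foxd1, Foxo6, Sox14 and Sox17, and 9 had an IgG exon peak (14.3%). Of 30 ChIP-specific peaks at the family 6 were exonic (interval 9.51% to 37.3%), against 4.52% of all ChIP-specific peaks, and of 33 IgG peaks there 9 were exonic (27.3%). The Sox14 peak measured 425 bp (FDR 0.00928, 493 bp downstream). Of 108 homeobox genes of the families searched, 5 had a ChIP-specific exon peak (4.63%), at Irx5, Nkx1-1, Nkx2-4, Nkx2-9 and Six2, and 13 an IgG exon peak (12.04%). Both families had shares above the background of 2.12% in the ChIP-specific list and higher shares still in the mock. Protocadherins, whose variable domains lie in large exons, had 6 of 69 genes with a ChIP-specific exon peak (8.70%) and 5 with an IgG exon peak.

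The remaining families were searched in the same way, against the background of 2.12% in the ChIP-specific list and 2.27% in the mock. Olfactory receptors, mostly read from 1 coding exon, had 6 of 1110 genes (0.541%), and 1.17% in the mock. Vomeronasal receptors had 4 of 355 (1.13%), zinc finger genes 8 of 400 and solute carriers 10 of 375 (2.67%). Ribosomal protein genes had 1 of 97, Rps6 (250 bp, FDR 0.00694, 307 bp downstream). Keratin genes had 2 of 53, Krt31 and Krt4. Ribosomal protein and keratin genes had 0 in the mock, and counts of 1 or 2 genes are too few to set against the background. The histone genes Hist1h3d and Hist1h3e, nearly identical in coding sequence to other copies of histone H3, had peaks of 200 and 100 bp. Whether reads of other copies were counted there was not tested.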

How the data were processed

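Nr1d1 ChIP-seq of mouse Th1 cells was used as peak lists deposited by the authors. Reads were aligned to mm10, with BWA and HOMER, per the submitters' processing notes. The sources used here name no versions and no peak caller, and do not say how the 3 ChIP libraries were joined. The q-value of each peak is the FDR deposited by the authors. The score in the annotation tables deposited by the authors equalled the peak length in bp in every row. Start coordinates in the annotation are 1 bp higher than in the lists, and lengths follow the lists. The ChIP-specific list held 14471 peaks, 2 without annotation.

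Members are the rows of class exon. Peaks were ordered by FDR, then length. Shares were compared by Fisher's exact test (two-sided), adjusted over 10 tests after Benjamini and Hochberg, with Wilson and Newcombe intervals at 95%. Another 6 tests were added after the data had been seen. Genes named are the 10 first members at genes that are not predicted, the 5 first at predicted genes, genes with 2 or more members, the 5 smallest and 5 largest distances, list genes, genes with exon peaks in both lists and the 5 first IgG exon peaks, up to 12 in each set by FDR and length. Some members are not reported here. Members and gene lists were chosen with earlier results of these data known. Python 3.11.15, pandas 2.3.3, scipy 1.17.1 and matplotlib 3.10.9 were used, and the tests were tested on simulated data.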

Additional observations from a re-analysis of the deposited data

How the results depend on the processing

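Of 50 alternatives, 30 kept direction and side of the threshold, and 7 were added after the data had been seen. With only the IgG exon peaks over no ChIP peak, differences from IgG turned to 4.01 points (within 1 kb), 5.96 (300 bp or longer), -2.47 (chromosome X) and -4.93 (predicted genes). The within 1 kb difference passed the threshold at 5 kb (-7.42) and without predicted genes (-7.16). The length difference from IgG lost its call at an FDR under 0.02 (-5.50), at 200 bp (-4.84), at 400 bp (-2.47) and with annotation coordinates (-4.16). The length difference from other classes lost its call at 200 bp (2.79), against promoter peaks (0.549) and for exon peaks beyond 1 kb (1.41). The FDR difference from other classes passed at 0.02 (5.41) and reversed against promoter peaks (-1.46) and beyond 1 kb (-1.60). The chromosome X difference from other classes reversed at an FDR under 0.02 (0.337) and without predicted genes (0.955). The share of exon ChIP peaks without IgG overlap was 72.1% with an overlap of 50% of the peak and 63.7% with no IgG peak within 1 kb. The cause of these changes was not tested. No replicate could be left out and no paired analysis was possible because the lists hold no values per library.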
